A study of Mus musculus with 3 samples.

Results

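Small nucleolar RNAs (snoRNAs) were followed in apoptotic bodies (ABs) of the osteoclast lineage. They were taken as the rows of the mRNA table whose GENCODE M21 transcript type is snoRNA. There were 286 such rows among 56651 rows of the table, which is 19.0% of the 1507 snoRNA transcripts annotated in mouse. Of these, 69 had 20 or more reads over the 3 libraries and could be named. The other 217 rows held 1307 reads, 6.68% of the 19558 snoRNA reads, and are given only as sums. At the limit, 2 snoRNAs had exactly 20 reads and 3 rows had 19.

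The study compared ABs at 3 stages of osteoclast differentiation, with 1 library each. BMM-ABs came from bone marrow macrophages (BMMs) of 11-week-old C57BL/6 mice, grown from marrow cells in 50 ng/ml M-CSF for 72 h. For pOC-ABs the BMMs received 30 ng/ml M-CSF and 100 ng/ml RANKL over 24 h, which gives preosteoclasts. For mOC-ABs the same factors were given for 72 h or longer, which gives mature osteoclasts. Per the labels, apoptosis was induced with 500 μM alendronate over 12 h, whereas the paper names staurosporine, a longer RANKL time for mature osteoclasts and another M-CSF dose. Titles name the cells, but the libraries are taken here as ABs because the series describes ABs. The comparisons are pOC-ABs against BMM-ABs (G1), mOC-ABs against BMM-ABs (G2) and mOC-ABs against pOC-ABs (G3). With no replicates there is no spread between samples and no test was made. Every interval in parentheses is a 95% interval, and those of reads and ratios cover counting error only. Those of medians were taken over the snoRNAs, which are not independent of each other and are not replicates of a stage. Where 3 read numbers stand together they follow the order of differentiation, from macrophages to mature osteoclasts.

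SnoRNAs are short non-coding RNAs of the nucleolus that guide chemical modification of other RNAs. C/D box snoRNAs carry box C (TGATGA) near the 5′ end and box D (CTGA) near the 3′ end, bind fibrillarin and guide 2′-O-methylation. H/ACA box snoRNAs fold into hairpins, end shortly after an ACA, bind dyskerin and guide pseudouridylation. A few, among them U3, U8 and U22, act in the processing of the ribosomal RNA precursor instead. Most mammalian snoRNAs are cut out of introns of a host gene after splicing, while U3, U8 and U13 are transcribed from genes of their own. Mature snoRNAs generally carry no poly-A tail. The libraries were made from RNA purified on poly-T beads according to the paper, so the reads give a share of the sequenced library and not an amount of mature snoRNA.

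The most-read snoRNA, Gm22988, is shown first, with 3 near-identical copies in other genes, because reads could match several of them. Coordinates are on GRCm38. Gm22988 lies within Eif4a1 at chr11:69669635-69669778 (minus strand), Gm25291 within Sec24a at chr11:51737779-51737922 (minus strand), Gm24727 within Gsr at chr8:33691801-33691944 (plus strand) and Gm25117 within Nap1l1 at chr10:111481493-111481636 (plus strand). Sequences are those of the GENCODE M21 transcripts, 5′ to 3′ as DNA, and capitals mark the ACA in the last 8 bases.
Gm22988: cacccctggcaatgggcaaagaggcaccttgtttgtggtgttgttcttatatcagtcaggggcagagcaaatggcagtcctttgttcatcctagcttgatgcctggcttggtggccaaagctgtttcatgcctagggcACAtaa
Gm25291: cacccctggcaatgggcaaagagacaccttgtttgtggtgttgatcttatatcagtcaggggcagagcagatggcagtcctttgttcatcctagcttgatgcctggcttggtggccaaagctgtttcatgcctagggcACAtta
Gm24727: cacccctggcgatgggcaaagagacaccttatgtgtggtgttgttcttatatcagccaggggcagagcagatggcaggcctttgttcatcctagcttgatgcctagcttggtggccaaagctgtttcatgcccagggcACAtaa
Gm25117: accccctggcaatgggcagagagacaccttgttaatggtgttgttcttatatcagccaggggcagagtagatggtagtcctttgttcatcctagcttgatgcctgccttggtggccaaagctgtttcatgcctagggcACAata
All 4 are 144 bases long. Gm22988 was identical to Gm25291 at 97.2% of positions, to Gm24727 at 93.8% and to Gm25117 at 92.4%.

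The 4 snoRNAs of Eif4a2 with 20 or more reads are shown because they share 1 host. They lie on the plus strand, Gm24201 at chr16:23110383-23110507, Snora81 at chr16:23110756-23110933, Gm26447 at chr16:23111301-23111429 and Gm24616 at chr16:23111617-23111755. Capitals again mark an ACA in the last 8 bases, which Snora81 did not have.
Gm24201: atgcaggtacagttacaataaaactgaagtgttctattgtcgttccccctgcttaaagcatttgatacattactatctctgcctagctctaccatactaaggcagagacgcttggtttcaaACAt
Snora81: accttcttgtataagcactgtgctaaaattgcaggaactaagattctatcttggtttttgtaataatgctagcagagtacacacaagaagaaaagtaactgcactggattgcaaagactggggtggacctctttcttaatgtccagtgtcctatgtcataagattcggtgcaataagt
Gm26447: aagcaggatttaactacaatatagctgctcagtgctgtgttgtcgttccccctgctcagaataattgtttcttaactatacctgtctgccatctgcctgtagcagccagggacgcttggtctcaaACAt
Gm24616: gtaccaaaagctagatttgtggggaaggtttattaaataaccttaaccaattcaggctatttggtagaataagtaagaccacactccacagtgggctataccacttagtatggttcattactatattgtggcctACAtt
Gm24201 and Gm26447 were identical at 72.9% of positions.

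U3 is shown because its reads were split between rows. Rnu3b4 lies at chr11:87462286-87462500 and the shorter of the 2 Rnu3a rows at chr10:40258467-40258679, both on the plus strand. The longer Rnu3a row has the same start and 1 more base. In Snord15a, a C/D box snoRNA at chr7:99482785-99482932 (minus strand), capitals mark boxes C and D.
Rnu3b4: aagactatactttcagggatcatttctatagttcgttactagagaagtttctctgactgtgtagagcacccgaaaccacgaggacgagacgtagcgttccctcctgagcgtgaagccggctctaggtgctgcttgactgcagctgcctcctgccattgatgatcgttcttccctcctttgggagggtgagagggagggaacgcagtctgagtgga
Rnu3a: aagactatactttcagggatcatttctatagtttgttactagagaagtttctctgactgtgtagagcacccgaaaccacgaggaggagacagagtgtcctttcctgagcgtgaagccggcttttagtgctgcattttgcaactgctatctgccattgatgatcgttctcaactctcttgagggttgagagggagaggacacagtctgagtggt
Snord15a: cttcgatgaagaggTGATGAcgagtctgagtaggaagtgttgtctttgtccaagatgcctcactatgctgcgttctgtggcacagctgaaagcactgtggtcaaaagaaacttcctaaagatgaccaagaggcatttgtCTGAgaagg
Rnu3b4 and Rnu3a were identical at 87.0% of positions.

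By name, the 286 rows split into 71 C/D box snoRNAs, 37 H/ACA box snoRNAs, 1 small Cajal body RNA (Scarna9) that the annotation types as snoRNA, and 177 rows whose symbol gives no class, such as Gm22988. The motifs went with the named classes. An ACA in the last 8 bases was found in 95.2% of the annotated H/ACA snoRNAs and 7.34% of the C/D ones. Boxes C and D together (TGATGA in the first 30 bases and CTGA in the last 30, on the transcript's strand) were found in 66.1% of the C/D snoRNAs and 0 of the H/ACA ones. Over all annotated snoRNAs the shares were 46.8% and 20.97%. The ACA window was widened after values were seen, and with the ACA exactly 3 bases before the end the H/ACA share was 83.3%. Among the 69 snoRNAs with 20 or more reads, 46 had the ACA and 13 had both boxes. Of the 35 of them with no class in the symbol, 28 had the ACA. Their median length was 134 bases over all 69, against 93 for the rows with fewer reads.

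Coverage was thin outside a few rows. The median snoRNA had 5.5 reads over the 3 libraries, and 85 rows (29.7%) had exactly 1 read in each library, against 2.79% of all rows of the table. Reads were present for 275, 274 and 269 snoRNAs in the 3 libraries, and for 250 in each of them. Gm22988 alone took 34.0%, 31.7% and 32.6% of the snoRNA reads, and the 5 most-read snoRNAs took 56.5%, 62.2% and 60.8%.

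The mRNA table summed to 9100082, 7387317 and 7705592 reads. Levels are given as RPM, reads per 1000000 reads of that table. To check the labels, 10 osteoclast markers were read, of which 8 had 20 or more reads and all of these were above 2-fold in G2, with Acp5 at 88, 292 and 2157 reads. Calcr was at 0 and Itgb3 at 6, 3 and 0 reads. Of 6 macrophage markers 5 had 20 or more reads, of which 2 were below 0.5-fold in G1 and 4 in G2, with Csf1r at 9870, 2640 and 3902 reads. Cd68 stayed within these limits at 6638, 4794 and 5056 reads, and Mertk had 0, 2 and 5 reads. Of 10 markers of other marrow cells, 9 were at 0 and Cd79a had 2, 1 and 0 reads.

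Over all rows, snoRNAs had their highest level in pOC-ABs. They took 4114, 9111 and 6333 reads, that is 452 RPM (438 to 466), 1233 RPM (1208 to 1259) and 822 RPM (802 to 842), or 0.0452%, 0.123% and 0.0822% of the table. The 3 intervals did not overlap. The level in pOC-ABs was 2.73-fold (2.63 to 2.83) that of BMM-ABs, the level in mOC-ABs 1.82-fold (1.75 to 1.89) that of BMM-ABs, and the G3 ratio was 0.666-fold (0.645 to 0.688). Without Gm22988 the ratios were 2.83, 1.86 and 0.658, and without the 5 most-read snoRNAs 2.37, 1.64 and 0.691. The rows below 20 reads together had 410, 488 and 409 reads, 1.47-fold (1.28 to 1.68) in G1 and 1.18-fold (1.02 to 1.35) in G2. Their reads in BMM-ABs and mOC-ABs were nearly equal, so the 1.18-fold comes from the library totals. Of these rows, 85 had exactly 1 read in each library, so part of the 1.47-fold comes from the totals as well. These are bulk libraries, in which more snoRNA per AB, more ABs that hold snoRNA and less of the other RNAs cannot be told apart.

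Summed over their rows, other short RNAs were higher in the same comparisons. Small nuclear RNAs, the RNAs of the spliceosome, took 32095, 54967 and 48436 reads, 2.11-fold (2.08 to 2.14) in G1 and 1.78-fold (1.76 to 1.81) in G2. Small Cajal body RNAs, which guide modification of small nuclear RNAs, took 934, 1598 and 1365 reads, 2.11-fold (1.94 to 2.29) in G1 and 1.73-fold (1.59 to 1.88) in G2. The rows typed as miRNA took 29668, 42021 and 36142 reads, 1.74-fold (1.72 to 1.77) in G1 and 1.44-fold (1.42 to 1.46) in G2, and those typed as misc_RNA 1460, 1867 and 1607 reads, 1.58-fold (1.47 to 1.69) and 1.30-fold (1.21 to 1.40). In G1 the snoRNA interval of these sums lay above those of all 4 types. In G2 it overlapped those of small nuclear and small Cajal body RNAs. By row, among rows that reached the read minimum, the order differed. The G1 median log2 ratio (1 read added) was 1.41 for 44 small nuclear RNAs and 1.37 for 8 small Cajal body RNAs. It was 1.04 for snoRNAs, 0.76 for misc_RNA and -0.086 for miRNA. In G2 these medians were 1.06, 0.79, 0.75, 0.60 and 0.21. The 2 mitochondrial ribosomal RNAs took 69788, 286517 and 88594 reads, a ratio of 5.06 in G1 and 1.5 in G2. Retained-intron transcripts, which can contain snoRNA sequence, had ratios of 0.806 and 0.736, and protein-coding transcripts 0.957 and 0.991. The part of these RNAs in the snoRNA result was not tested.

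**Figure D1:**
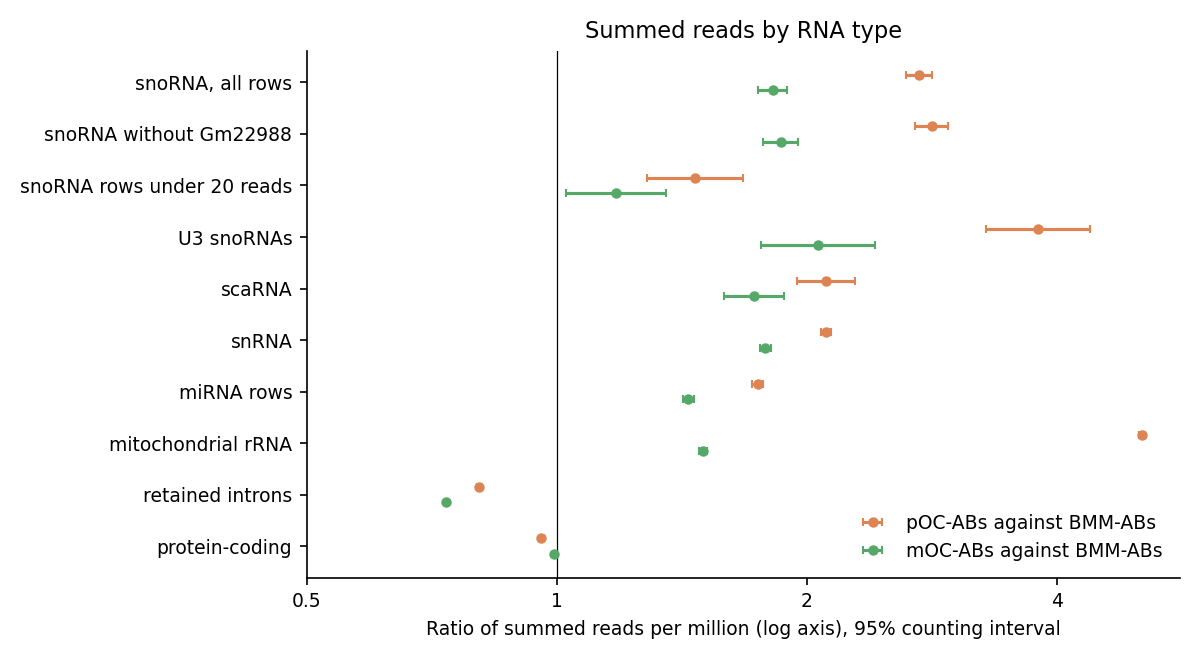
Ratio of summed reads, each as RPM (log axis), by RNA type, for pOC-ABs and for mOC-ABs against BMM-ABs, 1 library each, with bars for the 95% counting interval. SnoRNAs stand at 2.73 and 1.82, small nuclear RNAs at 2.11 and 1.78, and retained introns below 1 in both.

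The higher level in pOC-ABs was spread over many snoRNAs. In G1, 37 of the 69 (53.6%) were above 2-fold, against 14.5% of the 34650 rows of the table with 20 or more reads. Below 0.5-fold were 3 (4.3%), against 21.8% of all rows. These rows are single transcripts. For sums per gene, over 13890 genes with 20 or more reads, the shares were 6.07% above 2-fold and 7.39% below 0.5-fold. The median log2 ratio, with 1 read added, was 1.04 (0.70 to 1.37) for the snoRNAs and -0.069 for all rows, and 60 snoRNAs had a ratio above 0 on this scale, against 46.9% of all rows. Called by an interval that excludes a ratio of 1, 35 were higher and 2 lower, against 23.5% and 29.9% of all rows.

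The pattern in G2 had the same direction and smaller ratios. There 22 snoRNAs were above 2-fold and 3 below 0.5-fold, against 13.0% and 25.1% of all rows, and 54 had a log2 ratio above 0, against 43.4%. The median was 0.75 (0.37 to 0.87), beside -0.15 for all rows. By interval 24 were higher and 3 lower, against 22.3% and 32.1%. For sums per gene these G2 shares were 4.36% and 11.5%. In G3, 6 snoRNAs were above 2-fold and 15 below 0.5-fold, against 15.3% and 20.5% of all rows, and 3.81% and 9.18% of sums per gene. The share of snoRNAs below 0.5-fold (21.7%) was thus near that of all rows and above that of sums per gene. By interval 5 were higher and 26 lower in G3, against 22.3% and 26.1%, and 20 had a log2 ratio above 0, against 45.3%. The G3 median was -0.42 (-0.65 to -0.18), beside -0.061 for all rows. G1 and G2 share the BMM-AB library, G1 and G3 the pOC-AB library, and G2 and G3 the mOC-AB library.

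Ranked by level, 49 of the 69 snoRNAs (71.0%) were highest in pOC-ABs, 15 in mOC-ABs and 5 in BMM-ABs. Over all rows the shares were 32.4%, 27.3% and 40.4%. The 5 with their highest level in BMM-ABs were the longer Rnu3a row, Scarna9, Gm22579, Gm23969 and Snord55. Summed over its 2 rows, the Rnu3a locus counted 75, 237 and 17 reads and was highest in pOC-ABs. In the counts by row for G1, the shorter row stands among those above 2-fold and the longer among those below 0.5-fold.

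**Figure D2:**
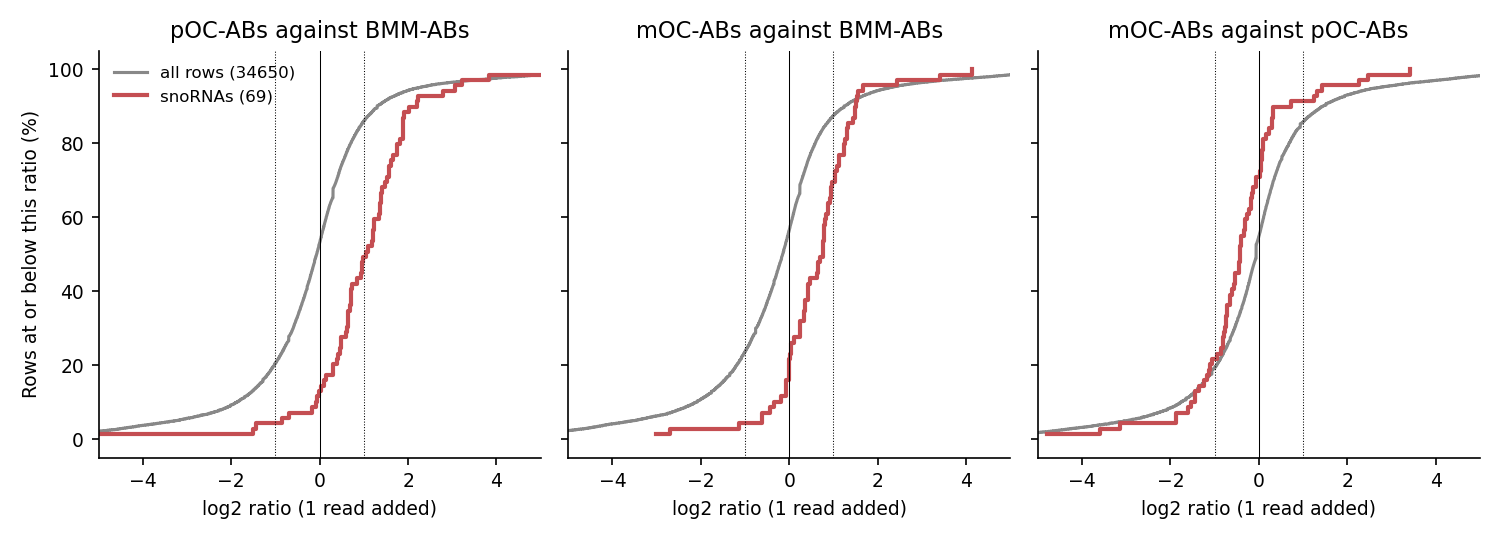
Cumulative share of rows (vertical axis, percent) at or below each log2 ratio (horizontal axis, 1 read added), for the 69 snoRNAs (red) and all 34650 rows with 20 or more reads (grey) in G1, G2 and G3, 1 library each, with dotted lines at 2-fold. The shorter Rnu3a row lies beyond the axis in G1. The medians of snoRNAs and all rows stand at 1.04 and -0.069 for G1, 0.75 and -0.15 for G2, and -0.42 and -0.061 for G3.

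The classes by name had close medians. In G1, 9 of 14 C/D box snoRNAs, 11 of 19 H/ACA box snoRNAs and 17 of 35 others were above 2-fold, with median log2 ratios of 1.21, 0.98 and 0.97. By sequence the order differed. Of snoRNAs with boxes C and D alone 5 of 12 were above 2-fold, with the ACA alone 24 of 45 and with neither 7 of 11. Their medians were 0.71, 1.04 and 1.20. Summed over all listed rows, those with boxes C and D stood at 1.83-fold (1.62 to 2.06) and those with the ACA at 2.72-fold (2.60 to 2.85). By length, 1 of the 10 snoRNAs under 100 bases was above 2-fold in G1, with a median of 0.43, and 36 of the 59 longer ones, with a median of 1.21. In G2 these medians were -0.012 and 0.78. Read number went with the ratio as well: 16 of 18 snoRNAs with 100 or more reads were above 2-fold in G1, with a median of 1.70, and 12 of 33 with 20 to 49 reads, with a median of 0.65. Reads were counted over all 3 libraries, so many reads in pOC-ABs raise both the read number and the G1 ratio. No share over all rows was taken for these groups, and the part of length and of read number was not tested.

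Among the 15 snoRNAs with the most reads, the level was lowest in BMM-ABs for all 15. They include the shorter Rnu3a row, whose locus, with both rows summed, was lowest in mOC-ABs, at 2.21 RPM against 8.24 RPM in BMM-ABs. The 15 were chosen by reads over the 3 libraries, which favours rows with many reads in pOC-ABs. No share of all rows with this order was taken. Gm22988 counted 1400, 2885 and 2062 reads. Its log2 ratio, which like those of the single snoRNAs that follow has no read added, was 1.34 (1.25 to 1.44) in G1 and 0.80 (0.70 to 0.90) in G2. Its copies had the same order with far fewer reads, at 39, 109 and 68 for Gm24727, 45, 98 and 67 for Gm25117 and 14, 31 and 19 for Gm25291. How reads that match several copies were assigned is not given in the sources used here, so the 4 are not independent.

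Gm24336, within Cwf19l1 (chr19:44113979-44114124, minus strand), counted 322, 1071 and 674 reads, 4.10-fold in G1 and 2.47-fold in G2. Gm25776, within Gtf2a1 (chr12:91573430-91573572, minus strand), counted 196, 588 and 283 reads and was below 0.5-fold in G3, at -1.12 (-1.33 to -0.91) on the log2 scale. Snora74a, an H/ACA box snoRNA also known as U19, counted 115, 439 and 279 reads, and its log2 ratio was 2.23 (1.93 to 2.54) in G1. Snora57, another H/ACA box snoRNA, counted 67, 194 and 104 reads. For each of these 4 the interval of the level in pOC-ABs lay above those of the other libraries.

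Snord22, the U22 RNA needed for processing of 18S ribosomal RNA, counted 67, 126 and 141 reads. Its levels in the later stages were close, with a G3 log2 ratio of 0.10 (-0.26 to 0.46). Snord15a (52, 143 and 124 reads) and Snord15b (50, 114 and 108 reads), both within the ribosomal protein gene Rps3, also had close levels there, with G3 ratios of -0.27 (-0.63 to 0.091) and -0.14 (-0.53 to 0.25) on that scale. Snora78 counted 70, 148 and 115 reads and Gm26397, within Tomm20, 60, 146 and 111 reads. Of the 18 snoRNAs with 100 or more reads, those not above 2-fold in G1 were Gm22422 at 1.97-fold and Gm24339 at 1.63-fold.

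**Figure D3:**
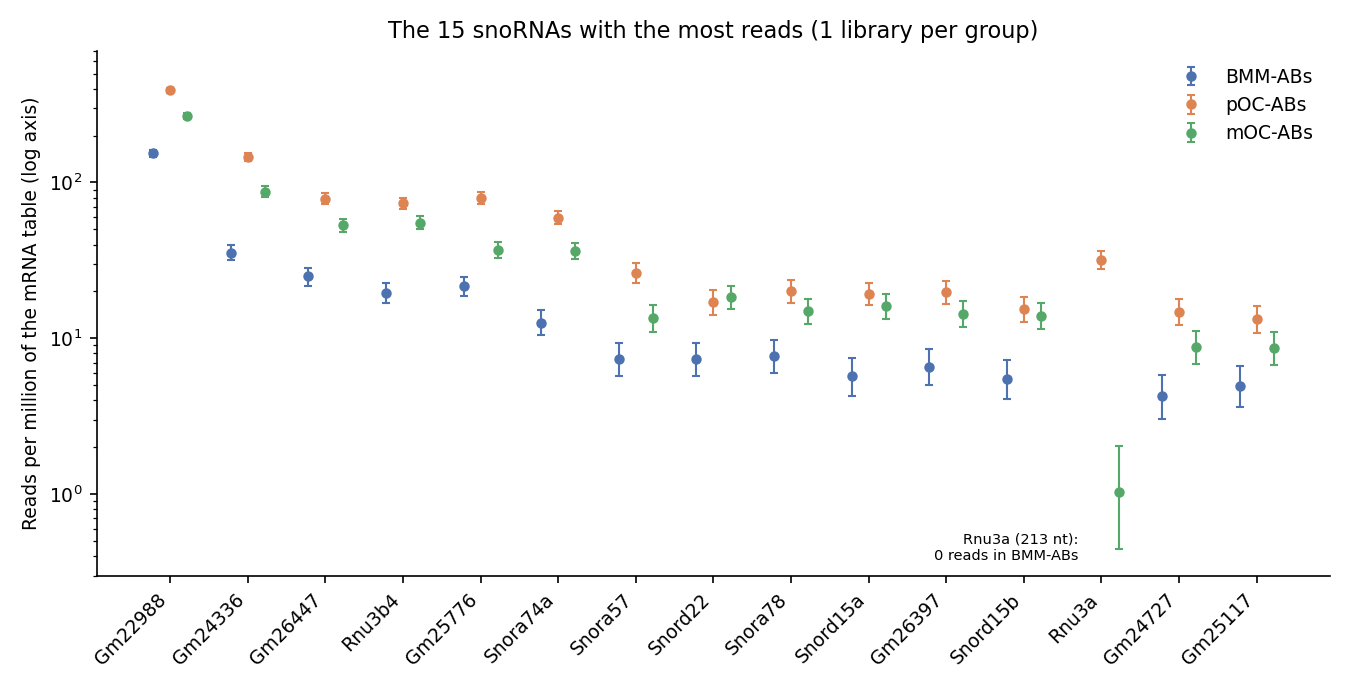
Level in RPM (log axis) for the 15 snoRNAs with the most reads at each of the 3 stages, 1 library each, with bars for the exact 95% counting interval. The BMM-AB point is the lowest of each snoRNA, and the shorter Rnu3a row has 0 reads there and no point.

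U3, which acts in the early cleavages of the ribosomal RNA precursor, was listed in 4 rows at 2 loci. Rnu3b4 counted 178, 544 and 425 reads. Its log2 ratio was 1.91 (1.67 to 2.16) in G1 and 1.5 (1.24 to 1.76) in G2. The shorter Rnu3a row counted 0, 236 and 8 reads, and the longer row at the same start 75, 1 and 9 reads. Where one of these rows had few or no reads in BMM-ABs and pOC-ABs, the other had most. Against a limit of 3 reads the shorter row was at least 96.9-fold higher in pOC-ABs than in BMM-ABs, and the longer row was at 0.0164-fold, but these rows differ by 1 base. Summed, the Rnu3a locus counted 75, 237 and 17 reads, 3.89-fold (2.99 to 5.12) in G1 and 0.268-fold (0.148 to 0.458) in G2. The Rnu3b4 locus was at 3.75-fold (3.16 to 4.47) in G1 and 2.81-fold (2.35 to 3.37) in G2. The loci thus had overlapping intervals in G1 and opposite directions in G2. All U3 rows together counted 254, 782 and 443 reads, 3.79-fold (3.29 to 4.39) in G1, 2.06-fold (1.76 to 2.41) in G2 and 0.543-fold (0.482 to 0.611) in G3.

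U8 (Snord118), which is needed for 5.8S and 28S ribosomal RNA, counted 13, 34 and 20 reads, with log2 ratios of 1.69 (0.73 to 2.73) in G1 and 0.86 (-0.22 to 1.99) in G2. U13 (Snord13) counted 4, 14 and 9 reads, with 2.11 (0.44 to 4.17) in G1 and 1.41 (-0.43 to 3.56) in G2. For both the interval excluded no difference in G1 and included it in G2. U13 reached 20 reads only with its reads in pOC-ABs, so the minimum itself favoured a higher ratio in G1.

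The rows with the highest and lowest ratios were mostly thin. After the shorter Rnu3a row, the highest in G1 were Snora81 with 1, 22 and 1 reads, Gm24455 with 6, 52 and 31 reads and Gm24616 with 14, 101 and 36 reads. On the log2 scale they stood at 4.76 (2.13 to 10.13), 3.42 (2.20 to 4.93) and 3.15 (2.34 to 4.07). Scarna9, within Cep295, counted 36, 10 and 30 reads, and its log2 ratio was -1.55 (-2.72 to -0.51) in G1. Gm24888, within Rpl27a, counted 13, 3 and 22 reads, and Gm23969, within Rpl7a, 19, 8 and 10 reads. The G1 intervals of both included no difference.

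In G2 the highest log2 ratio was that of Snora23, an H/ACA box snoRNA within Ipo7. It counted 2, 3 and 44 reads, with 4.70 (2.76 to 7.79) in G2 and 3.81 (2.17 to 6.15) in G3, so that most of its reads were in mOC-ABs. Snora44, within the snoRNA host gene Snhg12, counted 6, 10 and 18 reads, with 1.82 (0.43 to 3.45) in G2. On the low side, Gm22489, within the snoRNA host gene Gas5, counted 18, 16 and 1 reads, with -3.93 (-9.31 to -1.27) in G2. Snora31, within Tpt1, counted 30, 34 and 11 reads, with -1.21 (-2.35 to -0.17) in G2. Snora2b, within Kansl2, counted 5, 13 and 3 reads, with -2.18 (-4.63 to -0.31) in G3.

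For 63 of the 69 snoRNAs an annotated gene on the same strand contains them, which is called the host here. There were 48 hosts, 38 of them protein-coding and holding 50 of the snoRNAs. The 6 without a host were both Rnu3a rows, Snora57, Snord118, Snora43 and Snord13. Rnu3b4 lies within Tex14, although U3 has a promoter of its own. Host reads were summed over the listed transcripts of the gene, 342 of 380 annotated ones. Neither of the 2 genes that contain Snora74a has a transcript among the rows of the tables, so its host was not measured, and 62 snoRNAs and 47 hosts were compared.

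The hosts differed less between the libraries than their snoRNAs did. In G1 the median log2 ratio was 0.24 for the hosts and 0.96 for their snoRNAs, and 2 hosts were above 2-fold and 1 below 0.5-fold. The snoRNA reads per host read, with 1 read added to each, had a median log2 change of 0.79 (0.39 to 1.08) in G1, with 26 snoRNAs above 2-fold and 3 below 0.5-fold. As a background, reads of a retained-intron row per read of the other transcripts of its gene were above 2-fold for 13.8% of 7518 rows and below 0.5-fold for 27.5%. In G2 the median change was 0.50 (0.30 to 0.74), with 15 above and 2 below, against 10.6% and 34.3%. In G3 it was -0.20 (-0.45 to 0.067), with 5 above and 11 below, against 15.3% and 25.6%. A snoRNA is said to gain or lose on its host where the exact interval of the odds ratio of the reads, with none added, excludes 1. By this, 24 snoRNAs of 19 hosts gained in G1 and 3 snoRNAs lost, against 14.3% and 27.9% of the retained-intron rows by the same rule. In G2, 17 snoRNAs of 13 hosts gained and 2 lost, against 10.7% and 33.2%. In G3, 4 gained and 17 lost, against 13.4% and 22.0%. Across the 62 snoRNAs, the Spearman correlation of snoRNA and host log2 ratios was -0.048 in G1 and 0.17 in G2, a description over points that share libraries and in part a host.

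**Figure D4:**
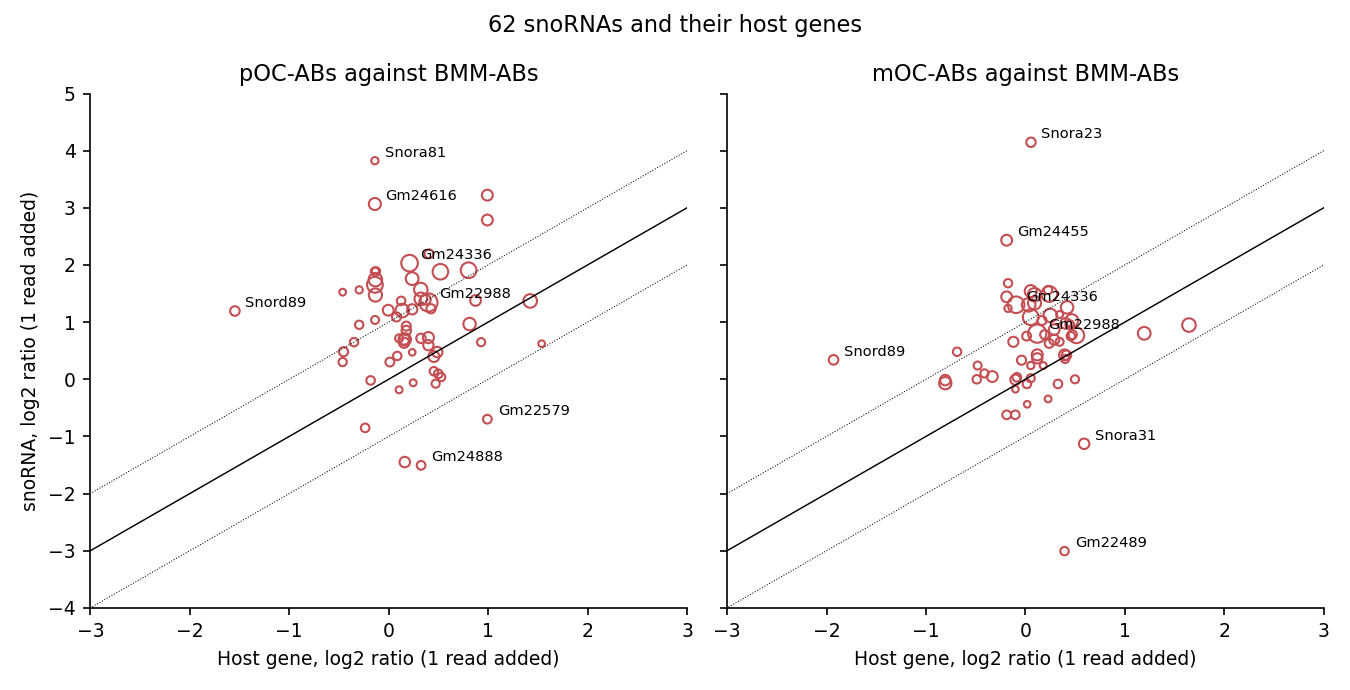
Log2 ratio of each snoRNA (vertical axis) against that of its host gene (horizontal axis), both with 1 read added, for 62 snoRNAs in G1 and G2, 1 library each. Circle size follows reads, the solid line marks equal change and dotted lines a 2-fold change against the host, and 26 snoRNAs in G1 and 15 in G2 lie above the upper dotted line.

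Summed over hosts, there were 3.17 hosted snoRNA reads per 100 host reads at the macrophage stage, 8.0 at the preosteoclast stage and 5.38 at the mature stage. Without Eif4a1 and its snoRNAs these were 1.86, 5.04 and 3.36, so that this host alone moved each value by over 1.5 times. In 3 cases the snoRNA had more reads than its host in every library. They were Gm24336 in Cwf19l1 (178, 167 and 141 host reads, from 1 listed of 8 annotated transcripts), Snora78 in Snhg9 (16, 36 and 44 host reads) and Rnu3b4 in Tex14 (11, 16 and 11 host reads). Snora78 did not gain on Snhg9 in G1, at -0.053 (-1.14 to 0.91), and the log2 ratio of this host was 1.42.

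Eif4a1 encodes a helicase of translation initiation and holds 3 of the 69 snoRNAs. It had 2019, 2161 and 1856 reads, and Gm22988 gained on it, by a log2 change of 0.94 (0.82 to 1.07) in G1 and 0.68 (0.54 to 0.82) in G2. The other snoRNAs of the gene, Gm25835 (28, 38 and 32 reads) and Gm24029 (21, 26 and 23 reads), stood at 0.33 (-0.41 to 1.11) and 0.20 (-0.68 to 1.12) in G1, intervals that include no change. A retained-intron transcript that covers all of Gm22988 had 489, 179 and 726 reads, and so was lowest in pOC-ABs, where Gm22988 was highest. Its reads are part of those of Eif4a1. How reads in the shared bases were assigned is not given, so the transcript and Gm22988 are not independent.

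Eif4a2, a paralog of Eif4a1, had 699, 515 and 614 reads, and its 4 snoRNAs with 20 or more reads all gained on it in G1. Snora81 and Gm24201 reached 20 reads only with their reads in pOC-ABs, so the minimum itself favoured a gain of these in G1. Gm26447 counted 227, 581 and 409 reads, a log2 change against the host of 1.79 (1.51 to 2.08). For Gm24616 the change was 3.21 (2.46 to 4.23), for Snora81 3.96 (2.26 to 10.27), and for Gm24201, with 6, 20 and 5 reads, 2.02 (0.79 to 3.79). In G2 the change was 1.03 (0.75 to 1.33) for Gm26447 and 1.49 (0.61 to 2.57) for Gm24616, whereas Gm24201 stood at -0.036 (-2.13 to 1.91). Summed over all 5 listed snoRNAs of the gene, reads were 249, 725 and 452, 3.59-fold (3.10 to 4.16) in G1. A retained-intron transcript covering Snora81 had 20, 58 and 21 reads, also highest in pOC-ABs.

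Taf1d, which encodes a subunit of an RNA polymerase I initiation factor, had 4400, 7105 and 3268 reads. Gm24455 and Gm25791 (9, 55 and 22 reads) gained on it in G1, by 2.23 (1.20 to 3.94) and 1.79 (0.89 to 3.12) on the log2 scale, and in G2, by 2.62 (1.51 to 4.35) and 1.63 (0.54 to 3.02). Gm22579 of the same gene, with 19, 9 and 10 reads, lost on it in G1, at -1.69 (-3.10 to -0.55). A retained-intron transcript that covers Gm24455 and Gm22579 had 3982, 6731 and 2914 reads, most of the host's.

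Further large changes against the host rested on few reads. Snord89, a C/D box snoRNA with 13, 25 and 14 reads, lies within Gm15832, which had 35, 9 and 7 reads, and gained on it by 2.74 (1.33 to 4.52) in G1 and 2.27 (0.65 to 4.26) in G2. Snora23 gained on Ipo7 (3872, 3935 and 3408 reads) by 4.09 (2.70 to 7.73) in G2. Gm22489 lost on Gas5 (785, 873 and 873 reads), at -3.40 (-9.71 to -1.65) in G2, while Gm22357 of the same gene, with 28, 30 and 32 reads, stood at 0.033 (-0.75 to 0.84). Scarna9 and Gm24888 lost on their hosts in G1, at -1.61 (-2.90 to -0.65) and -1.83 (-4.61 to -0.25). Snora31 lost on Tpt1 in G2, at -1.72 (-2.95 to -0.76). For Snora23 and Gm22489 the read minimum itself favoured the change in G2.

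SnoRNAs in ribosomal protein genes had lower ratios in G1 than those in other protein-coding genes. Of 13 in ribosomal protein genes, 3 were above 2-fold in G1, with a median log2 ratio of 0.64. Of 37 in other protein-coding genes 21 were, with a median of 1.34, and of 13 in non-coding hosts 8, with a median of 1.09. Summed over all listed rows, snoRNAs in ribosomal protein genes took 345, 526 and 510 reads, 1.88-fold (1.64 to 2.16) in G1, and those in other protein-coding genes 3264, 7514 and 5184 reads, 2.84-fold (2.72 to 2.96). In G2 these sums were at 1.75-fold (1.52 to 2.01) and 1.88-fold (1.79 to 1.96), with overlapping intervals.

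Of the 69 snoRNAs, 26 lie in an annotated exon of another gene on the same strand, and 17 of these were above 2-fold in G1, with a median log2 ratio of 1.36. Of the 43 in no such exon, 20 were, with a median of 0.73. Summed over all listed rows the ratios were 2.67-fold (2.54 to 2.81) in exons and 2.80-fold (2.65 to 2.95) outside them. In 29 hosts with 20 or more retained-intron reads, those reads had a median log2 ratio of 0.46 in G1 and 0.034 in G2.

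The genes of snoRNA proteins, read as sums per gene, stood closer to 0. Over all 13890 genes with 20 or more reads, the median log2 ratio was -0.021 in G1 and -0.075 in G2. Of these genes, 6.07% were above 2-fold and 7.39% below 0.5-fold in G1. The same shares were 4.36% and 11.5% for G2, and 3.81% and 9.18% for G3. None of the 4 core C/D proteins (Fbl, Nop56, Nop58 and Snu13) passed either limit in any comparison, and their median log2 ratio was 0.26 in G1 and 0.27 in G2. Fibrillarin (Fbl) counted 1018, 788 and 934 reads and Nop58 451, 666 and 607 reads, the latter at 0.86 (0.69 to 1.04) in G1. Of the 4 core H/ACA proteins (Dkc1, Nop10, Nhp2 and Gar1), Nop10 alone passed 2-fold, in G1, with 233, 393 and 294 reads and 1.06 (0.82 to 1.30). The median log2 ratio of these 4 was 0.41 in G1 and 0.45 in G2. Dyskerin (Dkc1) counted 415, 567 and 604 reads, at 0.75 (0.57 to 0.94) in G1. None of the 14 genes for assembly and trafficking or of the 7 for 3′ end processing and decay passed a limit in any comparison, with median log2 ratios of 0.22 and 0.37 in G1 and -0.0052 and 0.085 in G2. Dbr1, the enzyme that opens the intron lariats from which snoRNAs are released, counted 97, 108 and 87 reads, at 0.46 (0.047 to 0.87) in G1.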

How the data were processed

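One library per stage was sequenced. The authors deposited tables of mRNAs and of lncRNAs with read counts and FPKM per transcript, and the deposited FPKM entered only 1 alternative. The submitters' processing notes list FastQC, HISAT2 and StringTie without role or version, and GRCm38. The counting tool, its use of strand and its treatment of reads with several matches are not given in the sources used here. A circRNA table was not used.

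Of 56651 rows, 56422 matched GENCODE M21. Reads were divided by the total of the mRNA table. A call was a ratio above 2 or below 0.5 among rows with 20 or more reads over the 3 libraries, and medians used log2 with 1 read added. Intervals (95%) are exact (Clopper-Pearson) for shares and ratios and order-statistic over snoRNAs for medians. A limit of 3 reads stands for 0 (0.330 RPM in BMM-ABs, 0.406 for pOC and 0.389 for mOC). Reads carry no molecular identifiers, so intervals and limits of reads cover counting error only. The interval code was tested on simulated data. Identity was taken over global alignments of sequences of similar length, as a share of the longer one. Snora74a, whose containing genes have no row in the tables, was left out of the host comparison after its values were seen. Host reads come from both tables.

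Named were the 15 snoRNAs with the most reads, in each comparison the 4 highest and 4 lowest ratios and the 3 highest and 3 lowest changes against the host, and the members of the 3 hosts with most snoRNAs. Gm25291, Gm22422, Gm24339, Gm22357, Snord55, Snora43, Snord118 and Snord13 were added after their values were seen. Members and gene lists were chosen with earlier results of these data known. Alternatives changed the scaling, read minimum, pseudocount, call rule, grouping of rows and host reads. Python 3.11.15, numpy 2.4.6, pandas 2.3.3 and scipy 1.17.1 were used.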

Additional observations from a re-analysis of the deposited data

How the results depend on the processing

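No paired analysis was possible because each group has 1 library, and leaving out a library would leave no comparison. No direction of a summed ratio or a median reversed under the alternatives run, and none of a named ratio whose interval excluded no difference. Named ratios whose interval included no difference were not counted for a change of direction. Scaled to both tables, the shares were 0.0323%, 0.0768% and 0.0548%, and the ratios of summed reads 2.38 in G1, 1.70 in G2 and 0.714 in G3. With size factors these were 2.01 in G2 and 0.712 in G3, and the G2 median was 0.90. Without the 5 most-read snoRNAs, chosen after seeing the data like all alternatives of the summed ratio, they were 2.37, 1.64 and 0.691. With a minimum of 10 reads, 6 snoRNAs were below 0.5-fold in G1, 40 above and 8 below in G2, and 15 above and 31 below in G3. With a minimum of 50 reads, 2 were above and 7 below in G3 and the G1 median was 1.37. Against the host, that minimum left 16 above and 1 below in G1, 1 below in G2, and 1 above and 4 below in G3. With no minimum, 89 were above and 31 below in G1, while G2 had 65 and 34 and G3 had 32 and 76. The medians were then 0.30, 0.24 and -0.061, the values of a row with equal reads in the compared libraries. Of the 286 rows, 85 had exactly 1 read in each library, so these medians do not bear on direction. Among snoRNAs in no exon of another gene, 20 were above in G1, 11 above in G2 and 7 below in G3. By interval, 26 were lower in G3. The minimum and the exon rule change the number of snoRNAs counted (286 with none, 110 with 10 reads, 36 with 50, 43 in no exon). Shares over all rows were taken only at the minimum of 20 reads. The counts at other minimums therefore have no background beside them and are not read as a result about snoRNAs. Of 194 named log2 ratios under another scaling, 188 moved by less than their counting interval. In 5 the interval came to include no difference (Snora2b in G1 with both tables, and Snora78 and Gm26397 in G3 with either scaling), and in 3 to exclude it (Gm25835 in G1 and Gm24888 in G2 with size factors, Gm24888 in G1 with both tables). The median of all rows shifted by -0.20 in G1 with both tables and by 0.14 in G2 with size factors, and in G3 it moved from -0.061 to 0.038 with both tables and 0.034 with size factors.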
